A study of Homo sapiens with 6 samples.

Results

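The genes described here are 35 human genes of protein folding in the endoplasmic reticulum and of the unfolded protein response, taken by name from a list of genes with these roles, and the list was drawn up with earlier results of these data known. They comprise 16 chaperones and folding enzymes of the lumen, 2 subunits of the translocation channel, 7 genes of degradation from the reticulum, 4 stress sensors or their direct effector, and 6 genes of the ATF4 branch. Of these, 32 were tested among 10459 tested genes, and all 32 stood at or above log2 5, the limit taken as background, on all 6 arrays. CHAC1, a glutathione-degrading enzyme of the ATF4 branch, was under that limit on 5 of the 6 arrays (3.83 and 5.11 in iCSC, 3.53 and 3.73 in Sphere, 3.70 and 3.72 in Monolayer). DERL3, a derlin best known from secretory tissues, lay between 2.73 and 2.76 on all of them. SYVN1, the ubiquitin ligase HRD1, has a probe set that is shared with another gene symbol and was not analysed here.

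Messenger RNA of SK-N-AS, an established human neuroblastoma cell line, was measured on Affymetrix HG-U133 Plus 2.0 arrays in 3 cultures of 2 arrays each. For iCSC, cells attached as a monolayer received 2.5 uM 5AdC (5-aza-2'-deoxycytidine, which blocks DNA methyltransferases) during 5 days and afterwards grew as spheroids without serum. Sphere cells grew as spheroids without serum and had no pretreatment, and Monolayer cells grew attached and had no pretreatment either. iCSC against Sphere therefore compares spheroids with and without the earlier 5AdC, while in Sphere against Monolayer the shape of the culture and its medium cannot be told apart. In iCSC against Monolayer the earlier 5AdC, the shape of the culture and its medium cannot be told apart.

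Secreted and membrane proteins enter the endoplasmic reticulum through the Sec61 channel and fold there with the help of the HSP70 chaperone BiP (HSPA5), the HSP90 chaperone GRP94 (HSP90B1), the sugar-binding chaperones calnexin and calreticulin, and disulfide isomerases. Unfolded protein in the lumen activates the sensors IRE1 (ERN1), PERK (EIF2AK3) and ATF6. IRE1 splices the messenger RNA of XBP1, and XBP1 together with ATF6 raises transcription of chaperones and of degradation genes. PERK phosphorylates the initiation factor eIF2, which lowers protein synthesis and favours translation of ATF4, a factor that turns on genes of amino acid supply and of stress-induced cell death. Levels are log2 signals of 1 probe set per gene, a unit in which different genes cannot be ranked against each other, and neither splicing nor protein was measured.

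Some promoters of these genes hold letters of the sequence elements through which ATF6 and XBP1 are known to act, and these are shown as the known elements of this response. Windows of 250 bases before to 50 after the start of 32 of the 35 genes came from RefSeq (GRCh38.p14). PDIA3, DERL1 and DERL3 were not matched. The ER stress response element, searched on both strands as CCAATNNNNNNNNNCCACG, stood in 6 of these 32 promoters (18.8%) and in 22 of all 27305 promoters of the same length (0.0806%). Its shorter relative ERSE-II, searched as ATTGGNCCACG, stood in 3 of 32 (9.38%) and in 15 of 27305 (0.0549%). The copies are written below with the fixed letters in capitals, each read along its own strand.
HSPA5: CCAATcggcggcctCCACG
HSP90B1, first: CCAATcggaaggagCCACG
HSP90B1, second: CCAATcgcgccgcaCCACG
CALR: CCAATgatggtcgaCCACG
CANX: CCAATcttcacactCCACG
CRELD2: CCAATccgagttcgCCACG
XBP1: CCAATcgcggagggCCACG
HERPUD1: ATTGGgCCACG
HYOU1, both copies: ATTGGaCCACG
SDF2L1: ATTGGtCCACG

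Counted to its first base along the gene, the element lay 66 bases before the start in HSPA5, 52 in XBP1, 80 in CRELD2, 151 in CANX and 225 in CALR. HSP90B1 had copies at 194 and at 89 bases, and HYOU1 had ERSE-II at 185 and at 79. The short core bound by XBP1, TGACGTGG, was found in HYOU1 alone among the 32, against 0.795% of all promoters, and shared letters with the first ERSE-II there. The core of the amino acid response element that ATF4 binds, TGATGNAA, stood in the promoters of ASNS, CHAC1 and HERPUD1, 3 of 32 (9.38%) against 3.67% of all. A match describes letters in this window and shows no binding, and a promoter without one was not searched elsewhere.

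The 250 bases before the start of 4 of these genes are given whole, with motif matches on either strand in capitals: HSPA5 and HSP90B1 as the main chaperones, SDF2L1 as the member with the lowest fold change in Sphere against Monolayer, and ASNS as the carrier of the ATF4 element. HSPA5 lies at chr9:125241344-125241593 on the minus strand, HSP90B1 at chr12:103930160-103930409 on the plus strand, SDF2L1 at chr22:21642052-21642301 on the plus strand and ASNS at chr7:97872409-97872658 on the minus strand.
HSPA5: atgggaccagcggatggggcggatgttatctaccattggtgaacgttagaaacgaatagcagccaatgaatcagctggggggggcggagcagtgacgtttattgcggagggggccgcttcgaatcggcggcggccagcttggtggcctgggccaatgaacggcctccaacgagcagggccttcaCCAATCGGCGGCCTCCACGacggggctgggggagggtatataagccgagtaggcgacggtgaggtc
HSP90B1: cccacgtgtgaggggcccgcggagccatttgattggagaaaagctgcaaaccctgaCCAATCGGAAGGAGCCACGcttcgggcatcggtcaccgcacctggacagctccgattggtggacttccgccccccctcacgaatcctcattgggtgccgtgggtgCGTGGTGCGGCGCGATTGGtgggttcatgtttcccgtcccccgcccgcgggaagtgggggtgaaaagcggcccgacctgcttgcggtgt
SDF2L1: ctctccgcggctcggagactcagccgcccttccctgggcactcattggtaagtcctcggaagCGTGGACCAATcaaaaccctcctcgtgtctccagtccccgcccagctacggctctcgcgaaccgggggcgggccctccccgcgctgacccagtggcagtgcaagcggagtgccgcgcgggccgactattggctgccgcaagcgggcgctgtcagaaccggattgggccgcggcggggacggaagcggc
ASNS: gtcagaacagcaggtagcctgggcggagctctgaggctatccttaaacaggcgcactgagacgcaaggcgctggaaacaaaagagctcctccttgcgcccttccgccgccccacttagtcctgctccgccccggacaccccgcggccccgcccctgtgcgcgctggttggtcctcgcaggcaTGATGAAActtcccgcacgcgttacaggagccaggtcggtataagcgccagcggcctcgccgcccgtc

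In Sphere against Monolayer, 20 of the 32 tested genes fell and 4 rose (limma, adjusted p under 0.05), where 29.1% of all 10459 tested genes were called lower and 30.0% were called higher. The median log2 fold change of the 32 was -0.59, against 0.01 over all tested genes, and 11 of the 20 fell at least 2-fold. In iCSC against Monolayer 19 fell and 8 rose, against 26.6% and 29.0% of all tested genes, with a median of -0.48 against 0.02. Between the spheroid cultures, in iCSC against Sphere, 7 rose and 2 fell, against 19.3% and 19.2% of all tested genes. The rises were thus about as frequent as over all tested genes, and the falls were fewer. The median was 0.18 against 0.01, a smaller difference in the other direction, and no called gene reached 2-fold. These comparisons share arrays, so their values are not independent of each other. The labels do not state whether both arrays of a kind came from independently grown cells, and the p-values then measure only the spread between arrays, which may be technical.

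**Figure D1:**
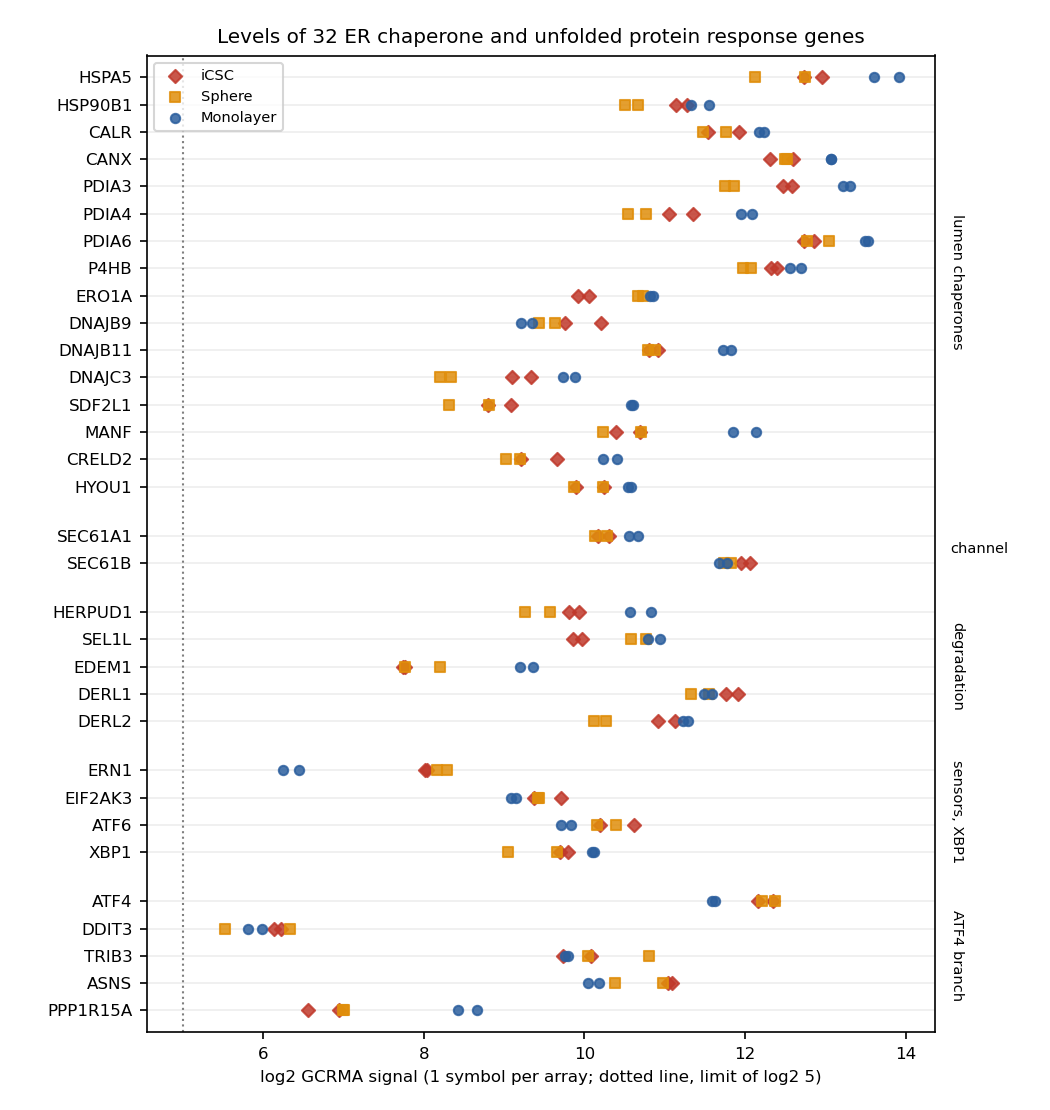
Log2 GCRMA signal of the 32 tested genes (horizontal axis) on each of the 6 arrays, with 1 symbol per array, diamonds for iCSC, squares for Sphere and circles for Monolayer; the dotted line is the limit of log2 5. For most lumen chaperones both Monolayer arrays lie to the right of the spheroid arrays, whereas for ERN1 and ATF4 they lie to the left.

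The 6 arrays had medians of 2.78 to 2.83 over their 54675 probe sets. Of 13 measured markers of adrenergic neuroblastoma, 10 reached log2 5 on both iCSC arrays, 12 on both Sphere arrays and 4 on both Monolayer arrays, with summed linear signals of 13446 to 15370, 47853 to 56491 and 1046 to 1303 in that order. For 9 mesenchymal markers the counts were 6, 4 and 8, with sums of 35599 to 37650, 18971 to 23512 and 40321 to 41494, and CD44 was under the limit on all arrays. Of 8 leukocyte markers, 6 (CD3D, CD3E, CD14, MS4A1, TYROBP and SPI1) were under the limit throughout. PTPRC stood at 2.85 and 2.87 in iCSC, 12.42 and 12.52 in Sphere and 11.64 and 11.84 in Monolayer, and the leukocyte sum was 61 to 318, 6169 to 6362 and 3240 to 3715. For 8 fibroblast markers the counts were 6, 6 and 4, with sums of 8688 to 13386, 13166 to 14169 and 2553 to 2687, and for 6 epithelial markers they were 1, 2 and 2, with sums of 294 to 355, 318 to 380 and 7548 to 8485 and with EPCAM and CDH1 under the limit throughout. For ACTB, the signal at the 3' end exceeded that at the 5' end, a gap that widens with RNA breakdown, by 1.47 and 1.40 in iCSC, 1.22 and 1.21 in Sphere and 1.25 and 1.16 in Monolayer. For GAPDH the gap was smaller, at 0.169 and 0.204 in iCSC, 0.122 and 0.148 in Sphere and 0.154 and 0.165 in Monolayer. The part of these marker and RNA differences in the results below was not tested, and in bulk samples fewer cells of a kind and less RNA per cell cannot be told apart.

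Lumen chaperones and folding enzymes were lower in both spheroid cultures than in Monolayer. In Sphere against Monolayer 14 of the 16 fell, between 1.42- and 4.08-fold, and none rose, with a median log2 fold change of -0.90. In iCSC against Monolayer 14 fell and 1 rose (median -0.73), and in iCSC against Sphere 5 rose and 1 fell (median 0.33). Over all tested genes, 29.1% were lower and 30.0% higher in Sphere against Monolayer, and 26.6% and 29.0% in iCSC against Monolayer. In iCSC against Sphere the shares were 19.2% and 19.3%. Taken per array as the median deviation of the 16 genes from their own means, the levels were -0.32 and 0.03 in iCSC, -0.47 and -0.27 in Sphere, and 0.49 and 0.54 in Monolayer. Both Monolayer arrays thus stood above all 4 spheroid arrays, and the iCSC and Sphere arrays overlapped.

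HSPA5, the BiP chaperone that binds unfolded chains and keeps the sensors inactive, had log2 signals of 12.74 and 12.95 in iCSC, 12.13 and 12.75 in Sphere and 13.60 and 13.91 in Monolayer. Every spheroid array was below both Monolayer arrays, while the iCSC and Sphere arrays overlapped. Its log2 fold change was -1.32 ± 0.21 in Sphere against Monolayer (SE, limma, adjusted p = 0.00208) and -0.91 ± 0.21 in iCSC against Monolayer (adjusted p = 0.0109). HSP90B1, the GRP94 chaperone that folds integrins and Toll-like receptors, stood at 11.14 and 11.28 in iCSC, 10.51 and 10.67 in Sphere and 11.33 and 11.55 in Monolayer. On this probe set no arrays overlapped, and the iCSC arrays came close under the Monolayer arrays. Probe sets of HSP90B1 with higher signals carry another gene symbol as well and were left out. The highest of them had 13.35 and 13.38 in iCSC, 12.90 and 13.03 in Sphere and 13.35 and 13.51 in Monolayer. There the iCSC and Monolayer arrays overlapped. HSP90B1 fell in Sphere against Monolayer (-0.85 ± 0.12, adjusted p = 9.93e-04) and rose in iCSC against Sphere (0.62 ± 0.12, adjusted p = 0.00721), whereas iCSC against Monolayer gave -0.23 (adjusted p = 0.130). HYOU1, the large HSP70 relative that exchanges nucleotide on BiP, changed less, by -0.50 in Sphere against Monolayer (adjusted p = 0.0376) and -0.49 in iCSC against Monolayer (adjusted p = 0.0439).

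The co-chaperones of BiP did not move alike. DNAJC3, a J-domain protein of the lumen also known as an inhibitor of PERK, had 9.10 and 9.34 in iCSC, 8.20 and 8.34 in Sphere and 9.73 and 9.88 in Monolayer. Sphere was lowest, Monolayer highest and iCSC between them without overlap, with log2 fold changes of -1.54 ± 0.14 in Sphere against Monolayer (adjusted p = 1.49e-04) and 0.95 ± 0.14 in iCSC against Sphere (adjusted p = 0.00241). SDF2L1, a partner of the J-domain proteins that limits aggregation, stood at 8.80 and 9.09 in iCSC, 8.31 and 8.81 in Sphere and 10.58 and 10.60 in Monolayer. It had the lowest fold change of the 32 genes in Sphere against Monolayer, -2.03 ± 0.19 (adjusted p = 1.83e-04), and -1.65 ± 0.19 in iCSC against Monolayer (adjusted p = 5.64e-04). DNAJB11, which delivers clients to BiP, fell by 0.94 in Sphere and by 0.92 in iCSC on the log2 scale against Monolayer (adjusted p = 1.93e-04 and 2.72e-04). DNAJB9, which hands IRE1 and degradation clients to BiP, was the exception in direction: it rose in iCSC against Monolayer (0.71, adjusted p = 0.0125), and in Sphere against Monolayer it gave 0.26 (adjusted p = 0.230).

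Disulfide isomerases and their oxidase form and rearrange disulfide bonds. PDIA3, the isomerase ERp57 that works with calnexin and calreticulin, measured 12.47 and 12.58 in iCSC, 11.75 and 11.86 in Sphere and 13.31 and 13.22 in Monolayer. The 3 cultures were apart on every array, and the log2 fold change was -1.46 ± 0.08 in Sphere against Monolayer (adjusted p = 1.74e-05), 0.72 ± 0.08 in iCSC against Sphere (adjusted p = 8.72e-04) and -0.74 ± 0.08 in iCSC against Monolayer (adjusted p = 4.81e-04). PDIA4, an isomerase with an added thioredoxin-like domain, had 11.05 and 11.35 in iCSC, 10.54 and 10.76 in Sphere and 11.96 and 12.08 in Monolayer. This is the same order as for PDIA3, with -1.36 ± 0.13 in Sphere against Monolayer (adjusted p = 2.21e-04) and 0.55 ± 0.13 in iCSC against Sphere (adjusted p = 0.0189). P4HB, the classical isomerase and a subunit of prolyl hydroxylase, fell by 0.61 on the log2 scale in Sphere against Monolayer (adjusted p = 0.00106), rose by 0.34 in iCSC against Sphere (adjusted p = 0.0211) and fell by 0.27 in iCSC against Monolayer (adjusted p = 0.0323). PDIA6, known to bind IRE1, fell against Monolayer in Sphere (-0.60, adjusted p = 0.00284) and in iCSC (-0.72, adjusted p = 0.00150), and iCSC against Sphere gave -0.12 (adjusted p = 0.425).

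ERO1A, the oxidase that recharges these isomerases, stood at 9.92 and 10.06 in iCSC, 10.73 and 10.67 in Sphere and 10.82 and 10.86 in Monolayer. On this probe set the calls were those of iCSC, with -0.71 ± 0.09 against Sphere (adjusted p = 0.00164) and -0.85 ± 0.09 against Monolayer (adjusted p = 4.69e-04), whereas Sphere against Monolayer gave -0.14 (adjusted p = 0.238). Its other probe sets gave -1.72 and -1.27 in Sphere against Monolayer and -3.04 and -2.19 in iCSC against Monolayer, all called lower. The calnexin cycle fell with the chaperones: CANX, calnexin, by 0.56 on the log2 scale in Sphere and by 0.61 in iCSC against Monolayer (adjusted p = 0.00374 and 0.00281), and CALR, calreticulin, by 0.59 and 0.47 in the same comparisons (adjusted p = 0.0154 and 0.0364). MANF, a small secreted protein that binds BiP, had 10.39 and 10.70 in iCSC, 10.23 and 10.71 in Sphere and 11.85 and 12.13 in Monolayer. The spheroid arrays overlapped one another well below Monolayer, at -1.52 ± 0.19 in Sphere (adjusted p = 7.28e-04) and -1.45 ± 0.19 in iCSC (adjusted p = 0.00106). CRELD2, a disulfide-exchange protein that is secreted under stress, fell by 1.21 in Sphere and by 0.89 in iCSC on the log2 scale (adjusted p = 0.00126 and 0.00540).

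**Figure D2:**
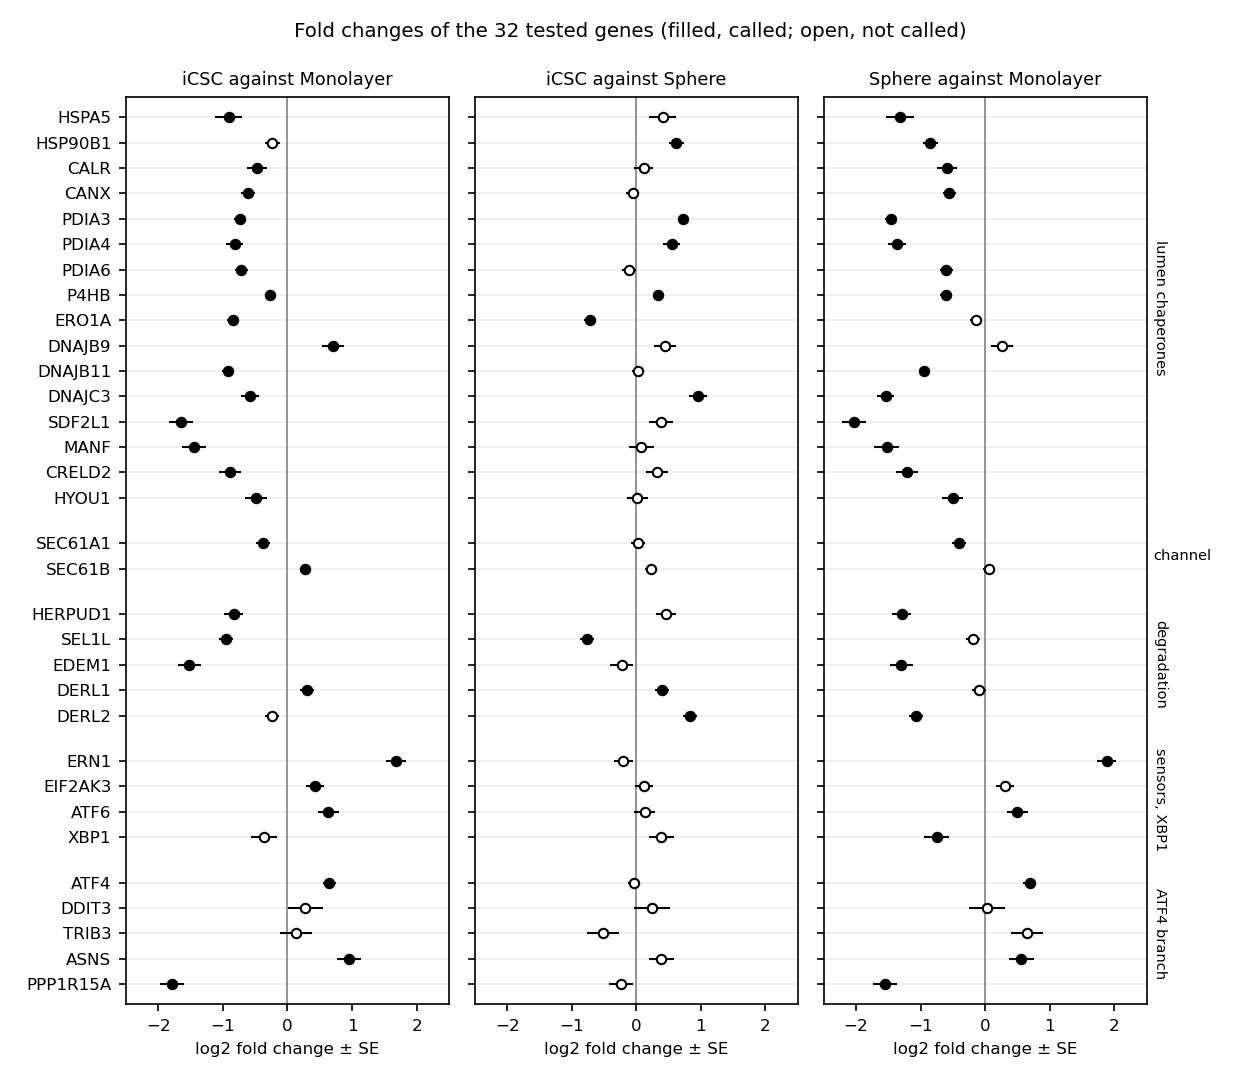
Log2 fold change ± SE (horizontal axis) of each of the 32 tested genes in iCSC against Monolayer, iCSC against Sphere and Sphere against Monolayer; filled points were called at an adjusted p under 0.05 and open points were not. In the outer panels the lumen chaperones lie mostly left of 0, with SDF2L1 at -1.65 and -2.03, and in the middle panel no point reaches 1 on either side.

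With 1 array left out, a culture keeps a single array that is assumed to vary like the others, and several calls among the lumen genes were lost. In Sphere against Monolayer these were CALR and HYOU1, lost without either Monolayer array or the first Sphere array (adjusted p of 0.0723 to 0.102 and of 0.132 to 0.202). In iCSC against Sphere HSP90B1 was lost without the first Sphere array (0.0529), PDIA4 without that array or the second iCSC array (0.0573 to 0.111), and P4HB without either Sphere array or the second iCSC array (0.0514 to 0.108). Among calls of iCSC against Monolayer, HSPA5 was lost without the second Monolayer or the first iCSC array (0.0572 to 0.0874), DNAJC3 without the second Monolayer array (0.0874) and CRELD2 without the first (0.0529). CALR, P4HB and HYOU1 were lost there without either Monolayer array or the first iCSC array (0.125 to 0.166, 0.0592 to 0.195 and 0.148 to 0.177), and DNAJB9 without either Monolayer array (0.0537 to 0.0898). In the other direction, iCSC against Sphere gained a call for HSPA5 without the second Sphere array (0.0385), for DNAJB9 without the second iCSC array (0.0173) and for CRELD2 without the first iCSC array (0.0318).

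Of the Sec61 channel, SEC61A1, its pore-forming subunit, fell slightly in Sphere (-0.40, adjusted p = 0.0167) and in iCSC (-0.38, adjusted p = 0.0222) against Monolayer. SEC61B, a small accessory subunit, rose in iCSC against Monolayer (0.28, adjusted p = 0.0319) and gave 0.05 in Sphere against Monolayer (adjusted p = 0.621). The SEC61A1 calls were lost without either Monolayer array, without the first Sphere array in Sphere against Monolayer (0.0530 to 0.114) and without the first iCSC array in iCSC against Monolayer (0.0652 to 0.139), and the SEC61B call without either Monolayer array or the second iCSC array (0.0784 to 0.176).

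Among the 5 tested genes of degradation from the reticulum, 3 fell and none rose in Sphere against Monolayer (median log2 fold change -1.07). In iCSC against Monolayer 3 fell and 1 rose (median -0.83), and in iCSC against Sphere 2 rose and 1 fell (median 0.40). Over all tested genes, 29.1% were lower and 30.0% higher in Sphere against Monolayer, and 26.6% and 29.0% in iCSC against Monolayer. In iCSC against Sphere the shares were 19.2% and 19.3%, and 5 genes are too few to be set apart from them. The median of -1.07 is the value of DERL2, whose probe sets disagree. HERPUD1, which organises the HRD1 ligase complex, had 9.94 and 9.80 in iCSC, 9.26 and 9.57 in Sphere and 10.57 and 10.83 in Monolayer. The iCSC arrays lay between those of Sphere and Monolayer, and the gene fell by 1.29 ± 0.15 in Sphere and by 0.83 ± 0.15 in iCSC on the log2 scale against Monolayer (adjusted p = 4.84e-04 and 0.00383). EDEM1, a lectin that sends misfolded glycoproteins to degradation, measured 7.75 and 7.76 in iCSC, 7.76 and 8.20 in Sphere and 9.36 and 9.19 in Monolayer. Spheroid arrays overlapped and stood below Monolayer, at -1.30 ± 0.18 in Sphere (adjusted p = 0.00104) and -1.52 ± 0.18 in iCSC (adjusted p = 6.12e-04).

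SEL1L, the partner that stabilises HRD1, had 9.97 and 9.85 in iCSC, 10.77 and 10.59 in Sphere and 10.79 and 10.95 in Monolayer. As for ERO1A, the calls on this probe set were those of iCSC, with -0.77 ± 0.11 against Sphere (adjusted p = 0.00262) and -0.96 ± 0.11 against Monolayer (adjusted p = 6.14e-04), while Sphere against Monolayer gave -0.19 (adjusted p = 0.190). Its other probe set was called lower in Sphere against Monolayer too (-0.78, adjusted p = 0.0101). DERL2, a derlin of the retrotranslocation machinery, stood at 10.91 and 11.13 in iCSC, 10.12 and 10.27 in Sphere and 11.29 and 11.23 in Monolayer. On this probe set Sphere was lowest, with -1.07 ± 0.11 against Monolayer (adjusted p = 2.89e-04) and iCSC above it by 0.83 ± 0.11 (adjusted p = 0.00172). The other probe set of DERL2 was called higher in Sphere against Monolayer (0.80), so its direction is uncertain. For DERL1, its relative, another probe set fell in iCSC against Monolayer (-0.89), so the direction there is uncertain too. On the probe set used, DERL1 rose in iCSC against Sphere (0.40, adjusted p = 0.0262) and against Monolayer (0.31, adjusted p = 0.0471). The first of these calls was lost without either Monolayer array, the second Sphere array or the first iCSC array (0.0619 to 0.126), and the other without either Monolayer array or the first iCSC array (0.116 to 0.218). Without the second iCSC array, DERL2 gained a call in iCSC against Monolayer (0.0373).

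The stress sensors were not lowered with the chaperones. ERN1, the IRE1 kinase and RNase, had 8.02 and 8.04 in iCSC, 8.29 and 8.17 in Sphere and 6.45 and 6.25 in Monolayer. All spheroid arrays stood well above Monolayer, and ERN1 had the highest fold change of the 32 genes in both comparisons with it, 1.88 ± 0.15 in Sphere (adjusted p = 9.33e-05) and 1.68 ± 0.15 in iCSC (adjusted p = 1.98e-04). EIF2AK3, the kinase PERK, averaged 9.54 ± 0.23 in iCSC, 9.43 ± 0.01 in Sphere and 9.11 ± 0.04 in Monolayer (SD, n = 2 each). It rose in iCSC against Monolayer (0.43, limma, adjusted p = 0.0368), and Sphere against Monolayer gave 0.31 (adjusted p = 0.0931). ATF6, which is cut in the Golgi to release a transcription factor, had 10.61 and 10.20 in iCSC, 10.39 and 10.15 in Sphere and 9.71 and 9.84 in Monolayer. It rose in Sphere (0.50 ± 0.16, adjusted p = 0.0367) and in iCSC (0.63 ± 0.16, adjusted p = 0.0166) against Monolayer on the probe set with the highest signal, but 1 of its other probe sets fell in both (-1.16 and -1.11), so the direction of the gene is uncertain.

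XBP1, the factor whose messenger RNA IRE1 splices and which itself carries an ER stress response element, measured 9.70 and 9.79 in iCSC, 9.05 and 9.66 in Sphere and 10.09 and 10.12 in Monolayer. Monolayer was highest, and XBP1 fell in Sphere against Monolayer (-0.75 ± 0.19, adjusted p = 0.0155), while iCSC against Monolayer gave -0.36 (adjusted p = 0.159). In Sphere against Monolayer the XBP1 call was lost without either Monolayer array (0.0825 to 0.0866) and the ATF6 call when any single one of the 4 arrays compared was left out (0.0596 to 0.194). Of the iCSC against Monolayer calls, that of ATF6 was lost without either Monolayer array or the first iCSC array (0.0513 to 0.109) and that of EIF2AK3 when any single array other than the second iCSC one was left out (0.0692 to 0.161). XBP1 gained a call there without either Sphere array (0.0342 to 0.0365) and in iCSC against Sphere without the second Sphere array (0.0202), and EIF2AK3 gained one in Sphere against Monolayer without either iCSC array (0.0304 to 0.0319).

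In the ATF4 branch the members parted. ATF4 itself had 12.16 and 12.35 in iCSC, 12.22 and 12.37 in Sphere and 11.59 and 11.62 in Monolayer. The spheroid arrays overlapped above Monolayer, and ATF4 rose by 0.69 ± 0.10 in Sphere and by 0.65 ± 0.10 in iCSC on the log2 scale (adjusted p = 0.00107 and 0.00160), although ATF4 is regulated chiefly in translation, which arrays do not measure. ASNS, asparagine synthetase, had 11.04 and 11.09 in iCSC, 10.38 and 10.98 in Sphere and 10.05 and 10.18 in Monolayer. Monolayer was lowest on both arrays and the Sphere arrays were far apart, and ASNS rose in iCSC (0.95 ± 0.19, adjusted p = 0.00581) and in Sphere (0.56 ± 0.19, adjusted p = 0.0403) against Monolayer. PPP1R15A, the stress-induced GADD34 subunit that lets phosphatase act on eIF2, ran the opposite way, with 6.56 and 6.95 in iCSC, 6.99 and 7.01 in Sphere and 8.43 and 8.66 in Monolayer. It fell in both spheroid cultures, by 1.79 ± 0.19 in iCSC and by 1.55 ± 0.19 in Sphere on the log2 scale (adjusted p = 3.77e-04 and 5.73e-04).

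DDIT3, the CHOP factor linked to stress-induced cell death, and TRIB3, a pseudokinase induced by it, were called in no comparison of the main fit, which had no replicate block. DDIT3 was low everywhere, with 6.13 and 6.22 in iCSC, 5.53 and 6.34 in Sphere and 5.81 and 5.98 in Monolayer, and its Sphere arrays lay on both sides of the others. TRIB3 had 9.74 and 10.08 in iCSC, 10.05 and 10.81 in Sphere and 9.80 and 9.76 in Monolayer. Its Sphere arrays were far apart, and without the first of them TRIB3 was called in Sphere against Monolayer (adjusted p = 0.00970) and between the spheroid cultures (0.0251). TRIB3 was also called in Sphere against Monolayer with the replicate number as a block (adjusted p = 0.0279) and with chromosome medians removed (0.78, adjusted p = 0.0332). The ASNS call in Sphere against Monolayer was lost when any single array other than the first Sphere one was left out (0.0570 to 0.189) and that in iCSC against Monolayer without the first Monolayer array (0.0530), and ASNS was called in iCSC against Sphere without the second Sphere array (0.0168).

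Replicate 2 read higher than replicate 1 for 26 of the 32 genes in iCSC, 25 in Sphere and 19 in Monolayer, with median differences of 0.13, 0.15 and 0.03. The widest gaps were 0.46 for CRELD2 in iCSC, 0.81 for DDIT3 in Sphere and 0.31 for HSPA5 in Monolayer. HSPA5, XBP1, ASNS, TRIB3 and DDIT3 differed by over 0.5 between the Sphere arrays.

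Several probe sets of a gene were measured for 18 of the 32 genes, 62 in all. Over all 62, 44 fell and 5 rose in Sphere against Monolayer (median -0.77), 39 fell and 9 rose in iCSC against Monolayer (median -0.64), and 14 rose and 5 fell in iCSC against Sphere (median 0.14). Their fold changes had the same sign for 16, 15 and 16 of the 18 genes in that order. Calls in opposite directions occurred for ATF6 and DERL2 in Sphere against Monolayer and for ATF6 and DERL1 in iCSC against Monolayer. The other probe set of DERL2 rose by 0.80 in Sphere and by 1.34 in iCSC against Monolayer, while DERL1 had another that fell by 0.89 in iCSC. Direction is uncertain for these genes. With the mean of all probe sets of a gene, Sphere against Monolayer gave -0.13 for DERL2 (adjusted p = 0.251) and -1.04 for ERO1A (4.12e-04), and HSP90B1 was called lower in iCSC against Monolayer (-0.54, adjusted p = 0.0120). That HSP90B1 mean includes a probe set that reached log2 5 on only 2 arrays, and it leaves out the probe sets shared with another symbol. HSP90B1, CALR and PDIA6 rest on probe sets whose probes may match related sequences. Leaving out this kind and those shared by several transcripts (suffixes x_at and s_at), the iCSC against Monolayer calls of CALR (-0.88, adjusted p = 0.0667) and DNAJB9 (0.18, adjusted p = 0.450) were lost.

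**Figure D3:**
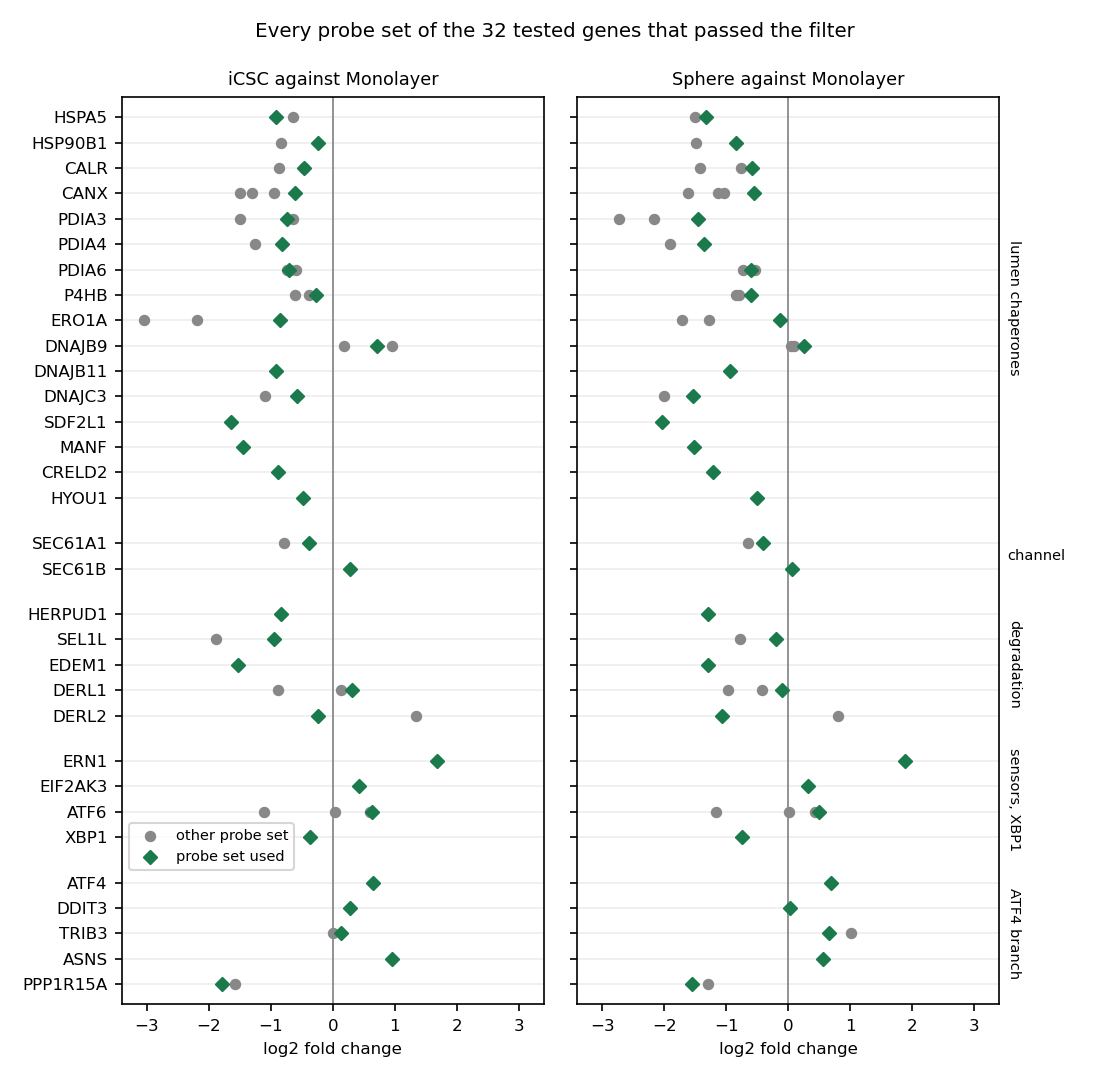
Log2 fold change (horizontal axis) of each of the 62 probe sets of the 32 tested genes that passed the filter, in iCSC against Monolayer and in Sphere against Monolayer; diamonds mark the probe set used and circles the others. Most circles of the lumen chaperones lie as far left as their diamond or farther, with those of ERO1A at -3.04 and -2.19 in iCSC against Monolayer. ATF6 has circles on both sides of 0 in both panels, and DERL1 has them in iCSC against Monolayer. DERL2 has its circle right and its diamond left of 0 in both panels.

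Whole chromosomes moved beside some of these genes. The 343 tested genes of chromosome 14, which carries ERO1A and SEL1L, had a median log2 fold change of -0.67 for iCSC over Sphere and -0.59 for iCSC over Monolayer, against 0.04 in Sphere against Monolayer. With each chromosome's median subtracted per array, an alternative chosen after seeing the data, iCSC against Sphere gave -0.05 for ERO1A (adjusted p = 0.688) and -0.11 for SEL1L (0.494), so both calls were lost. Chromosome 15, with PDIA3, had a median of 0.47 in iCSC against Sphere and -0.46 in Sphere against Monolayer, and PDIA3 then gave 0.27 in iCSC against Sphere (0.0535). Chromosome 3, with MANF, DNAJB11, EDEM1 and SEC61A1, had medians of -0.46 in Sphere and -0.39 in iCSC against Monolayer. SEC61A1 turned to 0.05 and 0.03 in these comparisons, whereas MANF, DNAJB11 and EDEM1 were still called lower in both. SEC61B, on chromosome 9, turned to -0.12 in iCSC against Monolayer, and the calls of CANX (-0.21, adjusted p = 0.103) and ERO1A (-0.23, 0.0638) in iCSC against Monolayer were lost as well. HSP90B1, on chromosome 12, whose genes had medians of 0.49 in Sphere and 0.54 in iCSC against Monolayer, gained a call in iCSC against Monolayer (-0.77, adjusted p = 0.00197), as did DERL2 there (-0.33, 0.0351) and TRIB3 in Sphere against Monolayer (0.78, 0.0332). Further calls lost this way were those of P4HB (0.12, adjusted p = 0.273) and DERL1 (0.30, 0.0607) in iCSC against Sphere, of ATF6 (0.46, 0.0524) and ASNS (0.50, 0.0626) in Sphere against Monolayer, and of CALR (-0.24, 0.212), HYOU1 (-0.33, 0.128) and EIF2AK3 (0.13, 0.420) in iCSC against Monolayer. Chromosome number was not measured, and its part in these values was not tested.

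The 9 genes with an ER stress response element or ERSE-II shown above, CALR, CANX, CRELD2, HERPUD1, HSP90B1, HSPA5, HYOU1, SDF2L1 and XBP1, all fell in Sphere against Monolayer, with a median log2 fold change of -0.85. In iCSC against Monolayer 7 of them fell and none rose (median -0.61), HSP90B1 and XBP1 not being called. In iCSC against Sphere HSP90B1 alone rose. Over all tested genes, 29.1% were lower in Sphere against Monolayer, 26.6% lower in iCSC against Monolayer and 19.3% higher in iCSC against Sphere. Among 15 tested genes with either element that are not members, 8 fell and 1 rose in Sphere against Monolayer (median -0.36). Other members without either element in the window fell as far, among them MANF, EDEM1 and DNAJC3. Of the members whose promoter holds the amino acid response core, ASNS rose and HERPUD1, which also holds ERSE-II, fell.

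The wider machinery of the reticulum was counted from lists of other genes with the same or related roles. Of all tested genes, 29.1% were lower and 30.0% higher in Sphere against Monolayer, and 26.6% and 29.0% in iCSC against Monolayer. In iCSC against Sphere these shares were 19.2% and 19.3%. The first list holds other folding enzymes and chaperones, and also some transcription factors, proteases and receptors. Of its 44 tested genes, 22 fell and 6 rose in Sphere against Monolayer (median -0.42). In iCSC against Monolayer 20 fell and 9 rose (-0.31), and in iCSC against Sphere 12 rose and 5 fell (0.18). Of 37 genes of translocation, N-glycosylation and signal peptide cleavage, 23 fell and 3 rose in Sphere against Monolayer (-0.57), 23 fell and 1 rose in iCSC against Monolayer (-0.36), and 9 rose and 6 fell in iCSC against Sphere (0.10). SPCS3, a signal peptidase subunit, fell by 1.70 ± 0.08 in Sphere and by 1.40 ± 0.08 in iCSC on the log2 scale (adjusted p = 9.42e-06 and 3.11e-05), and STT3B, a catalytic subunit of the oligosaccharyltransferase, by 1.40 ± 0.09 and 1.17 ± 0.09 (adjusted p = 3.58e-05 and 1.08e-04). TRAM2, a channel-associated protein tied to collagen synthesis, fell by 2.16 ± 0.16 in Sphere against Monolayer (adjusted p = 5.50e-05) and rose by 1.15 ± 0.16 in iCSC against Sphere (adjusted p = 0.00185). Of 27 other degradation genes, 13 fell and 3 rose in Sphere against Monolayer (-0.37), 9 fell and 5 rose in iCSC against Monolayer (-0.11), and 7 rose and 1 fell in iCSC against Sphere (0.13). EDEM3, a mannosidase related to EDEM1, fell against Monolayer with log2 fold changes of -1.73 ± 0.09 in Sphere and -1.60 ± 0.09 in iCSC (adjusted p = 1.34e-05 and 2.67e-05), and VCP, the ATPase that pulls clients from the membrane, rose by 0.89 ± 0.11 in iCSC against Sphere (adjusted p = 0.00152).

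Other ATF4 targets were called in both directions, in Sphere against Monolayer at about the shares of all tested genes given above. Of 40, 10 rose and 12 fell in Sphere against Monolayer (median -0.02), 14 rose and 8 fell in iCSC against Monolayer (0.10), and 12 rose and 6 fell in iCSC against Sphere (0.20). The core TGATGNAA stood in 10 of their 37 matched promoters (27.0%). The serine synthesis genes among them were far apart between cultures. PSAT1, phosphoserine aminotransferase, had 11.05 and 11.07 in iCSC, 10.86 and 11.40 in Sphere and 4.16 and 4.17 in Monolayer. With Monolayer under the limit it was at least 66.6-fold higher in iCSC and at least 70.0-fold higher in Sphere. PSAT1 passed the filter through the spheroid arrays alone, so no p-value is given. PHGDH, the first enzyme of that pathway, had 9.88 and 10.09 in iCSC, and averaged 6.67 ± 0.47 in Sphere and 5.72 ± 0.40 in Monolayer (SD, n = 2 each). It was highest in iCSC, by 3.32 ± 0.28 over Sphere (adjusted p = 2.56e-04) and 4.26 ± 0.28 over Monolayer (adjusted p = 5.38e-05). STC2, stanniocalcin, ran the other way, with 5.80 and 6.15 in iCSC, 8.34 and 8.52 in Sphere and 10.83 and 10.61 in Monolayer, -2.45 ± 0.17 in iCSC against Sphere (adjusted p = 1.12e-04) and -4.75 ± 0.17 in iCSC against Monolayer (adjusted p = 4.35e-06).

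Of 11 kinases, subunits and regulators of eIF2, 4 fell and 2 rose in Sphere against Monolayer, 4 fell and 2 rose in iCSC against Monolayer, and 2 fell and 1 rose in iCSC against Sphere, with medians of -0.15, -0.08 and -0.03. EIF2AK4, the amino acid sensing kinase GCN2, fell by 1.19 ± 0.14 in Sphere and by 0.48 ± 0.14 in iCSC against Monolayer (adjusted p = 5.84e-04 and 0.0292). EIF2S1, the subunit of eIF2 that the kinases phosphorylate, fell by 0.69 in Sphere and by 1.55 in iCSC against Monolayer (adjusted p = 0.0299 and 0.00120), and it lies on chromosome 14. Its other probe sets were closer together between cultures, the first with 10.45 and 10.38 in iCSC, 10.69 and 10.85 in Sphere and 10.97 and 10.82 in Monolayer. Chaperones of the cytosol and mitochondria, 40 genes outside the reticulum, gave 14 lower and 6 higher in Sphere against Monolayer (-0.23), 10 lower and 8 higher in iCSC against Monolayer (-0.13), and 12 higher and 3 lower in iCSC against Sphere (0.16). Of all tested genes, 29.1% were lower and 30.0% higher in Sphere against Monolayer, and 26.6% and 29.0% in iCSC against Monolayer. In iCSC against Sphere these shares were 19.2% and 19.3%. The lower calls of the 40 chaperones against Monolayer were near these shares, and the 11 eIF2 genes are too few to be set apart from them.

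**Figure D4:**
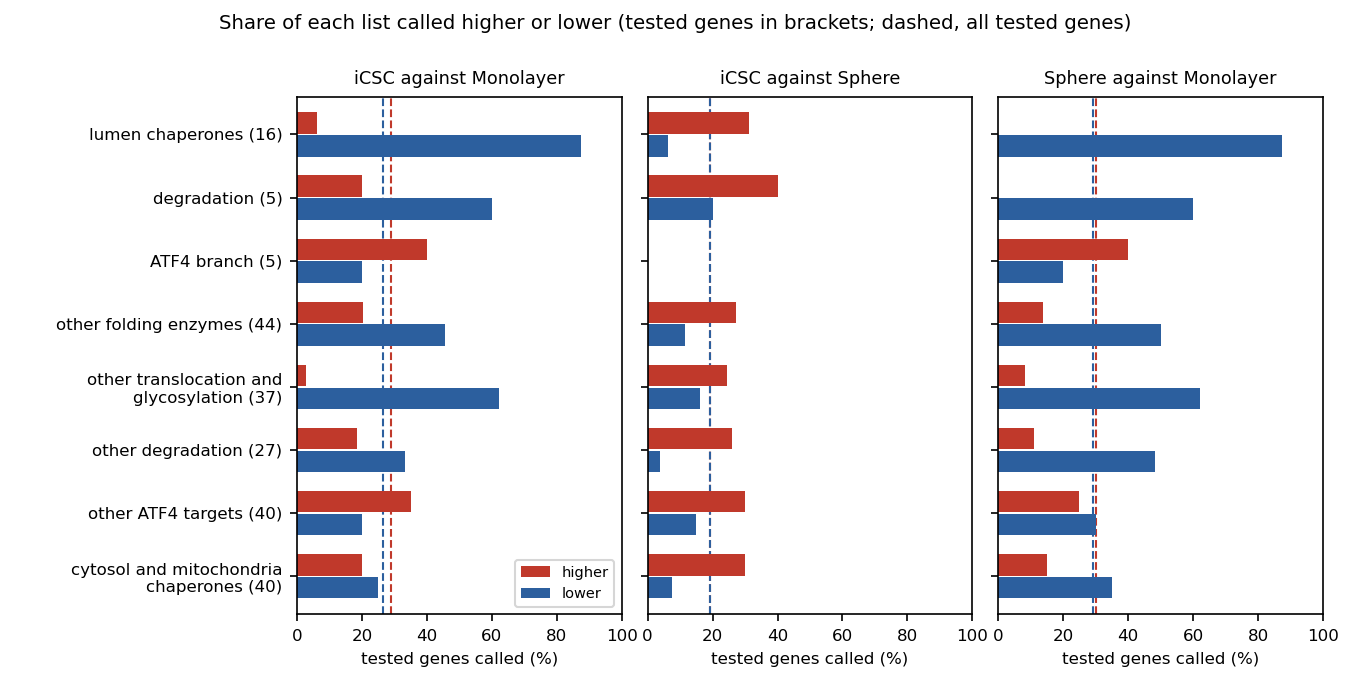
Share of the tested genes of each plotted list (percent, horizontal axis) that were called higher (upper bar) or lower (lower bar) in iCSC against Monolayer, iCSC against Sphere and Sphere against Monolayer, with the number of tested genes in brackets and the shares over all 10459 tested genes as dashed lines. The lower bars of the lumen chaperones (14 of 16) and of the translocation and glycosylation genes (23 of 37) reach farthest in both comparisons with Monolayer, and those of the cytosolic and mitochondrial chaperones stay nearer to the dashed lines.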

How the data were processed

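Log2 expression values were deposited for 6 arrays of SK-N-AS cells, 2 per culture. Per the submitters' processing notes, GCRMA and Partek made these values, and the sources used here give no versions or settings. GCRMA corrects background and normalizes between arrays, so differences in total RNA between cultures cannot be seen.

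Of 54675 probe sets, 62 controls, 1801 with several symbols and 11721 with none were left out, and 41043 of the 41091 with 1 symbol in the platform annotation matched a current RefSeq name. A gene was tested if a probe set reached log2 5 on at least 2 of the 6 arrays, and the probe set with the highest mean stood for it. limma 3.58.1 (R 4.3.3) fitted all 6 arrays with 1 variance per gene, moderated with a trend over the mean, and Benjamini-Hochberg adjustment ran over all 10459 genes in each comparison at a threshold of 0.05. The script was checked on simulated data. Where all arrays of the lower culture were under log2 5, a fold is given as at least the ratio to that limit.

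All 35 members are named. Of each list of related genes and each comparison, up to 4 called genes with the largest absolute fold change whose arrays did not overlap could be named. Members and lists were chosen with earlier results of these data known. Alternatives were the filter, the probe set rule, the variance model, the scaling, a replicate block, leaving out each array, and, chosen after seeing the data, removal of each chromosome's median. Promoters were read with Python 3.11.15. A planned search for retention signals in the proteins was not run, because protein sequences were not used here.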

Additional observations from a re-analysis of the deposited data

How the results depend on the processing

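With 2 arrays per culture and 3 residual degrees of freedom, only part of the calls was stable. There were 18 alternative settings, or 17 for 8 of the genes. Of those 8, DDIT3 was under log2 7 and missed the setting with that filter. The others passed the filter only with probe sets of the suffix x_at or s_at. Under every setting run for the gene, 17 of 24 calls were kept in Sphere against Monolayer. The same held for 12 of 27 in iCSC against Monolayer and 2 of 9 (DNAJC3 and DERL2) in iCSC against Sphere. In Sphere against Monolayer the members called higher were 2 with no filter, with no variance trend or with no moderation, and the median of the members was -0.75 with the mean of all probe sets or without cross-matching probe sets, where the lumen median was -1.13 and -1.32. In iCSC against Sphere, without moderation, 1132 genes were higher and 1149 lower and 3 members were higher. With chromosome medians removed 4 members were higher and 0 lower, and without cross-matching probe sets 1 was lower. In iCSC against Monolayer the members called higher were 5 with no filter and 2 without moderation, and the median of the members was -0.59 with the mean of all probe sets, -0.59 without cross-matching ones and -0.33 with chromosome medians removed. Sign changes are listed where the main or the alternative fit called the gene, and some uncalled genes changed sign as well. With chromosome medians removed, signs turned for SEC61A1 (0.0543 in Sphere and 0.0337 in iCSC against Monolayer) and SEC61B (-0.12 in iCSC against Monolayer). With the mean of probe sets they turned for ATF6 (-0.0543 in Sphere against Monolayer), DERL1 (-0.15) and DERL2 (0.55, both in iCSC against Monolayer). Values for the chromosome medians and the probe sets stand beside the genes above, and the cause of these changes was not tested. Leaving out each array in turn gave 2 to 4 members higher and a median of -0.71 to -0.46 in Sphere against Monolayer. Between iCSC and Sphere it gave 1318 to 1942 genes higher, 1242 to 1941 lower, 4 to 8 members higher and a lumen median of 0.11 to 0.37. For iCSC against Monolayer it gave 1748 to 2735 genes lower, 2 to 7 members higher and a median of -0.67 to -0.31.

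The labels link same-numbered arrays by their number alone and do not state whether they were made together. Deviations of same-numbered arrays correlated at 0.02 between Sphere and Monolayer, 0.17 between iCSC and Sphere and -0.05 between iCSC and Monolayer. With the replicate number as a block, 5 members were higher and 20 lower for Sphere over Monolayer, 9 and 2 for iCSC over Sphere, and 8 and 19 for iCSC over Monolayer. The members that gained a call were TRIB3 in Sphere against Monolayer (adjusted p = 0.0279) and, for iCSC over Sphere, HSPA5 (0.0288) and HERPUD1 (0.0468), and none lost one. Under the block the genes called higher and lower were 3175 and 3044, 2061 and 2045, and 3097 and 2794 in the same comparisons.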

Other observations

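Outside the members, the most divided genes of oxidative folding were the glutathione peroxidases of the reticulum, which use peroxide made during disulfide formation. GPX7 had 2.53 and 2.96 in iCSC, 10.31 and 10.33 in Sphere and 2.50 and 2.59 in Monolayer, so it was at least 40.0-fold higher in Sphere than in Monolayer. It passed the filter through the Sphere arrays alone, so no p-value is given. GPX8 was the reverse, with 9.20 and 9.17 in iCSC, 2.50 and 2.38 in Sphere and 10.11 and 10.06 in Monolayer, and iCSC exceeded Sphere at least 18.2-fold. Sphere was thus the culture with GPX7 above the limit and GPX8 under it, and in iCSC and Monolayer it was GPX8 that stood above. KDELR3, a receptor that returns chaperones from the Golgi, was higher in iCSC by 2.55 ± 0.26 on the log2 scale against Sphere (limma, adjusted p = 5.75e-04).

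Among chaperones outside the reticulum, HSPB8, a small heat shock protein of selective autophagy, had 4.71 and 5.29 in iCSC, 4.20 and 4.38 in Sphere and 9.63 and 9.69 in Monolayer, and it was at least 25.3-fold lower in Sphere than in Monolayer. BAG2, a nucleotide exchange factor of HSP70, had 10.34 and 10.52 in iCSC, 8.01 and 8.48 in Sphere and 10.84 and 10.72 in Monolayer. It fell by 2.53 in Sphere against Monolayer (adjusted p = 4.15e-05) and rose by 2.18 in iCSC against Sphere (adjusted p = 1.76e-04) on the log2 scale.

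In all, 37 promoters of any gene held an ER stress response element or ERSE-II in the same window. Of the 15 tested genes among them that are not members, 8 fell and 1 rose in Sphere against Monolayer (median -0.36), 6 fell and none rose in iCSC against Monolayer (-0.34), and 4 rose and 1 fell in iCSC against Sphere (0.06). Of all tested genes, 29.1% fell and 30.0% rose in the first of these comparisons, 26.6% and 29.0% in the second, and 19.2% and 19.3% in the third. SERP1, a small protein that stabilises membrane proteins at the channel and is named here after its values were seen, fell against Monolayer with log2 fold changes of -0.81 in Sphere and -0.76 in iCSC (adjusted p = 6.99e-04 and 0.00110).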
